A study of Brachypodium distachyon with 6 samples.

Results

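A set of 7 members of the phenylalanine ammonia-lyase (PAL) family was followed in roots of *Brachypodium distachyon* Bd21, an inbred line of a small grass used as a model for cereals and forage grasses. They were chosen by identifier, and all 7 were among the 19538 genes of the expression table. Neither that table nor the gene reference used here describes the identifiers, so their membership of the family was taken as given and was not checked. Whether the table holds further PAL genes could not be checked either. By their numbering the genes fall into a neighbouring pair (Bradi3g47110 and Bradi3g47120), a neighbouring quartet (Bradi3g49250, Bradi3g49260, Bradi3g49270 and Bradi3g49280) and a single gene (Bradi5g15830).

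PAL removes the amino group of phenylalanine to give trans-cinnamate, the entry step of the phenylpropanoid pathway. The products of this pathway include lignin, which stiffens and waterproofs xylem and other cell walls, the hydroxycinnamates that cross-link grass cell walls, and flavonoids. In grasses some enzymes of the family also accept tyrosine and give p-coumarate directly, and PAL genes of many plants are known to respond to wounding and infection. Which of the 7 genes encodes which kind of enzyme was not annotated in the sources used here.

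The study compared pruned with intact plants, to see how cutting the leaves alters gene expression below ground. In each culture box, part of the 2-week-old seedlings were cut with scissors and the others were kept as intact controls. Roots of both were collected 2 days later, so that the RNA came from an organ that had not itself been cut. Each group had 3 libraries, described as biological replicates. All plants were of the line Bd21 and grew on agar medium with sucrose, which both groups shared. How many plants went into a library was not given in the sources used here.

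The values are RPM, the reads of a gene per 1000000 reads counted on the listed genes of that library. The pruned libraries rest on 17278649, 28420464 and 26518230 reads and the intact libraries on 21292543, 18790356 and 18150223. Pruned replicates 2 and 3 were counted from the first read of each pair, and the other 4 libraries from both reads, so read layout and pruning can be told apart only through pruned replicate 1. RPM is not divided by gene length, so it compares a gene between libraries and not one gene with another as transcript levels. Roots were sequenced whole, and fewer cells of a type cannot be told apart from less RNA per cell. The tissue was not checked against marker genes, since the identifiers carry no names.

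Of the 7 PAL genes, 4 fell in pruned roots, 1 rose by a small margin and 2 did not pass the test. Bradi3g49250, Bradi3g49260, Bradi3g49280 and Bradi5g15830 were 13.5% to 24.9% lower than in intact roots. Bradi3g49270, which lies by number between genes that fell, was 14.7% higher. Bradi3g47110 and Bradi3g47120 were hardly read in either group. The test was limma on log2(RPM + 0.5) with Benjamini-Hochberg adjustment over all genes, a call needing an adjusted p of at most 0.05.

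Calls were common in the table as a whole. Among all genes tested, each with at least 1 RPM in at least 3 libraries, 50.3% were called, against 5 of the 7 PAL genes. Calls lower in pruned roots made up 20.2% of all genes and took 4 of the 7. Calls higher in pruned roots made up 30.1% of all genes and took 1 of the 7. This split over all genes moved with the scaling: 40.1% of all calls were lower in pruned roots as reported, 48.5% with median-ratio scaling and 49.95% with quantile normalization. When at least 2-fold change was also asked for, 4.26% of all genes were called and 0 of the 7, and 0 of the 7 reached 1.5-fold. With limma 5 of the 7 had an unadjusted p under 0.05, and on the recovered reads DESeq2 and both tests of edgeR likewise gave 0 at 2-fold. The matching shares of all genes at 1.5-fold, at an unadjusted p and at 2-fold with these other tools were not computed. Those counts therefore cannot be set against the table as a whole. At an adjusted p of at most 0.05 alone, the edgeR quasi-likelihood test called 51.2% of all genes. The edgeR exact test called 49.1% and DESeq2 44.0%. Of the 7 PAL genes they called 5, 5 and 4 in that order. The median log2 fold change, pruned over intact, was -0.21 over the 7 PAL genes and 0.04 over all genes.

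**Figure D1:**
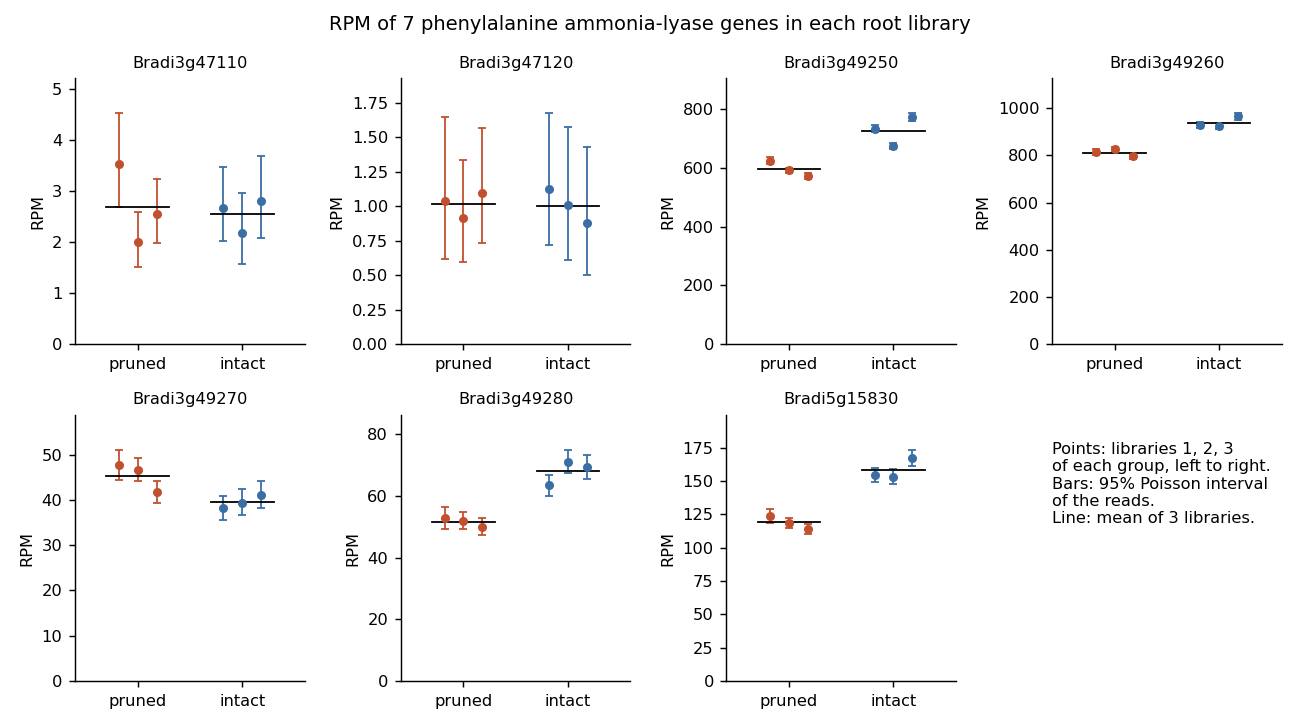
RPM (vertical axes, each from 0) of the 7 PAL genes in the pruned and intact root libraries. Points are libraries, bars the 95% Poisson interval of the reads behind them and lines the mean of 3 libraries; Bradi3g49250, Bradi3g49260, Bradi3g49280 and Bradi5g15830 lay lower in every pruned library than in any intact one.

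Most reads of the 7 genes came from the first 2 genes of the quartet. Bradi3g49260 had 814.8, 826.9 and 795.8 RPM in pruned roots, against 927.7, 924.7 and 965.3 RPM in intact roots. The groups did not overlap, and the spread within each was narrow. It averaged 812.5 ± 15.7 RPM in pruned and 939.3 ± 22.6 RPM in intact roots (SD, n = 3 each), 13.5% lower, with a log2 fold change of -0.21 (SE 0.04, adjusted p = 0.000219 by limma). By mean RPM it stood at rank 93 of the 19538 genes, so it was among the most heavily read genes of the root. Its fall was the smallest of the 4.

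Bradi3g49250, its neighbour at rank 147, had 624.1, 591.0 and 571.6 RPM in pruned roots and 732.0, 673.5 and 772.6 RPM in intact roots. Every pruned library was again below every intact one, with a wider spread among the intact libraries. The means were 595.6 ± 26.5 and 726.0 ± 49.8 RPM (SD, n = 3 each), 17.97% lower in pruned roots, and the log2 fold change was -0.28 (SE 0.05, adjusted p = 4.17e-05 by limma). The log2 ratio of Bradi3g49250 to Bradi3g49260 within a library differed by -0.08 between pruned and intact roots, with overlapping groups (exact permutation test, two-sided, p = 0.2).

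The larger falls were in Bradi5g15830 and Bradi3g49280, both of which were read less. Bradi5g15830, the single gene on another chromosome by its identifier, had 124.0, 118.6 and 114.0 RPM in pruned roots, against 154.3, 153.2 and 167.3 RPM in intact roots. The lowest intact library was far above the highest pruned one. Its means were 118.8 ± 5.01 RPM in pruned and 158.3 ± 7.85 RPM in intact roots (SD, n = 3 each), 24.9% lower, with a log2 fold change of -0.41 (SE 0.05, adjusted p = 1.92e-07 by limma). Among all genes called lower in pruned roots, 56.7% changed less than this gene, whose fall was the largest of the 7 PAL genes.

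Bradi3g49280, the last gene of the quartet, had 52.782, 52.005 and 50.003 RPM in pruned roots and 63.5, 71.1 and 69.37 RPM in intact roots. The 3 pruned libraries were nearly equal and all lay below the intact ones. The means were 51.6 ± 1.43 and 68.0 ± 3.99 RPM (SD, n = 3 each), 24.1% lower in pruned roots, and the log2 fold change was -0.39 (SE 0.05, adjusted p = 2.16e-06 by limma). The log2 ratio of Bradi3g49280 to Bradi5g15830 differed by 0.02 between pruned and intact roots (exact permutation test, two-sided, p = 0.8).

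Bradi3g49270 went the other way. It had 47.75, 46.73 and 41.74 RPM in pruned roots, against 38.18, 39.44 and 41.1 RPM in intact roots. The groups did not overlap, but the lowest pruned library and the highest intact one nearly touched, and their 95% counting intervals, 39.32 to 44.28 RPM and 38.2 to 44.16 RPM, overlapped. The means were 45.4 ± 3.21 RPM in pruned and 39.6 ± 1.46 RPM in intact roots (SD, n = 3 each), and the log2 fold change was 0.19 (SE 0.06, adjusted p = 0.0104 by limma). This call was not firm. It was lost with DESeq2 (adjusted p = 0.0872), with quantile normalization (0.0773) and in limma without the trend (0.0572). It was also lost without pruned replicate 1 (0.0591), without pruned replicate 2 (0.0578) and without intact replicate 1 (0.0548). Over 19 alternatives the gene stayed higher in pruned roots, with adjusted p from 0.00342 to 0.0872, and 13 of them kept the call. These settings are not all separate: leaving out the filter changed nothing, and both settings for read layout gave the same estimate from pruned replicate 1. In all 19 the other 4 called genes kept theirs. Calls were common under these settings as well, at 44.0% of all genes with DESeq2 and 51.3% with quantile normalization.

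The pair was read too little for a small change to be seen. Bradi3g47110 had 3.53, 2.01 and 2.56 RPM in pruned roots and 2.68, 2.18 and 2.81 RPM in intact roots, on 41 to 68 reads a library. The groups overlapped, and pruned replicates 1 and 2 were the highest and the lowest of all 6 libraries. Its log2 fold change was 0.04 (95% interval -0.30 to 0.39, adjusted p = 0.847 by limma). With the paired-end libraries alone, which leave pruned replicate 1 against the intact libraries, the log2 difference was 0.41.

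Bradi3g47120 had 1.04, 0.915 and 1.09 RPM in pruned roots and 1.13, 1.01 and 0.8815 RPM in intact roots, on 16 to 29 reads a library. The groups overlapped throughout. Its log2 fold change was 0.01 (95% interval -0.37 to 0.39, adjusted p = 0.967 by limma). It ranked 19353 by mean RPM, near the bottom of the table. For both genes of the pair the interval still allows a change as large as that of Bradi3g49250, in either direction.

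**Figure D2:**
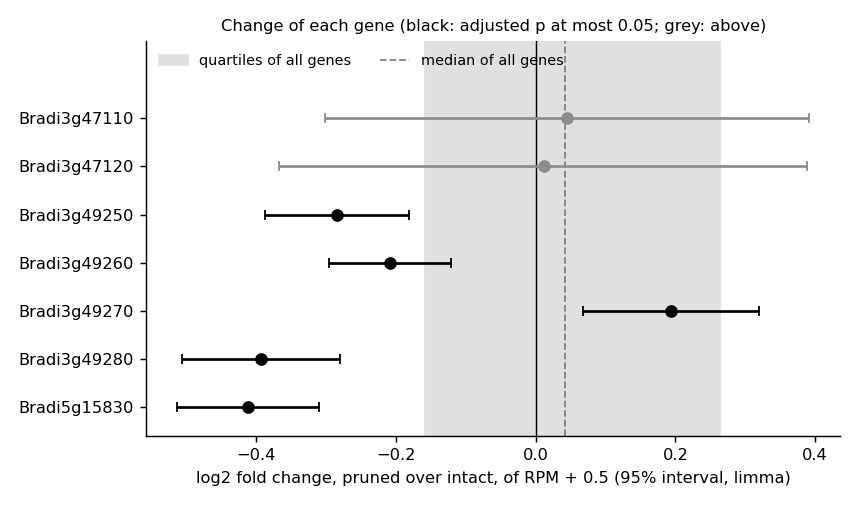
Log2 fold change, pruned over intact, of RPM + 0.5 (horizontal axis) of each PAL gene with its 95% interval from limma; genes in black passed the test and genes in grey did not. The shaded band runs between the quartiles of all 19538 genes, from -0.16 to 0.26, and the dashed line is their median, 0.04: Bradi3g49270 lies inside the band and the 4 genes that fell lie to its left.

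The 4 falls lay below the lower quartile of all genes and around the median of the genes called lower. The quartiles of all genes lay at log2 fold changes of -0.16 and 0.26, and the median of the genes called lower in pruned roots was -0.37. Bradi5g15830 and Bradi3g49280 stood at the 8.9th and 9.6th percentile of all genes, Bradi3g49250 at the 14.9th, Bradi3g49260 at the 20.4th and Bradi3g49270 at the 68.3rd. Groups that did not overlap, with pruned roots lower, were found for 22.7% of all genes and for 4 of the 7 PAL genes. The same with pruned roots higher was found for 33.4% of all genes and for 1 of the 7.

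Replicates varied more than counting alone gives for the most heavily read genes. The coefficient of variation of Bradi3g49250 was 4.46% over pruned and 6.86% over intact libraries, where the reads alone would give 0.838% and 0.843%. For Bradi3g49260 it was 1.93% over pruned and 2.41% over intact libraries, against 0.715% and 0.741% from the reads. For Bradi3g47120 the measured values, 9.05% over pruned and 12.2% over intact libraries, were below the 20.3% and 22.5% that the reads alone would give.

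Summed over the 7 genes, PAL reads were lower in every pruned library than in any intact one. The 7 genes together took 1668, 1638 and 1577 RPM in pruned roots, against 1919, 1865 and 2019 RPM in intact roots. The means were 1628 ± 46.5 and 1935 ± 78.3 RPM (SD, n = 3 each), a ratio of 0.841. This sum is mostly the sum of Bradi3g49250 and Bradi3g49260. They made up 86.5% of the reads of the 7 genes in pruned and 86.1% in intact roots, so the sum carries little of the other 5 genes. The sum carries no test of its own.

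**Figure D3:**
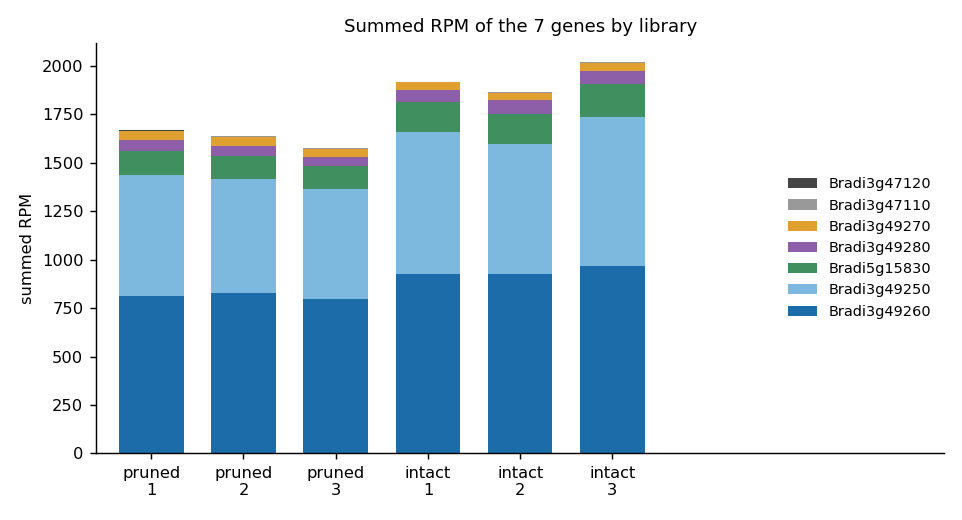
Summed RPM of the 7 PAL genes (vertical axis) in each pruned and intact root library, stacked by gene. The pruned bars reach 1577 to 1668 RPM and the intact bars 1865 to 2019 RPM, and Bradi3g49260 and Bradi3g49250 fill most of each.

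By neighbouring group, the quartet summed to 1539, 1517 and 1459 RPM in pruned roots, against 1761, 1709 and 1848 RPM in intact roots. It was 15.1% lower in pruned roots by the ratio of means, and the groups did not overlap. The pair summed to 4.57, 2.92 and 3.66 RPM in pruned roots, against 3.804, 3.19 and 3.69 RPM in intact roots, with overlapping groups and a ratio of 1.04. Without pruned replicate 1 the ratio of the pair was 0.923, and with the paired-end libraries alone it was 1.28. For the single gene Bradi5g15830 the ratio was 0.751.

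The make-up of the reads of the 7 genes shifted a little. Bradi3g49270 held 2.86%, 2.85% and 2.65% of these reads in pruned roots, against 1.99%, 2.11% and 2.04% in intact roots. Its share was higher in each pruned library than in any intact one. The share of Bradi5g15830 was 7.43%, 7.24% and 7.23% in pruned roots and 8.04%, 8.22% and 8.29% in intact roots, and that of Bradi3g49280 averaged 3.17% in pruned and 3.52% in intact roots. Both were lower in every pruned library. The shares of Bradi3g49250, 36.6% in pruned and 37.5% in intact roots, and of Bradi3g49260, 49.9% and 48.6%, overlapped between the groups.

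The log2 ratio of one gene to another within a library compares neighbours directly and, for genes read far above the added 0.5 RPM, hardly depends on how the libraries were scaled. Bradi3g49270 was taken as the denominator because it was the gene seen to be higher in pruned roots, so these ratios describe the pattern already given and are no separate support for it. For Bradi3g49280, next to Bradi3g49270 by number, the log2 ratio to Bradi3g49270 was 0.14, 0.15 and 0.26 in pruned roots, against 0.73, 0.84 and 0.75 in intact roots. It differed by -0.59 between them (SE 0.09). For Bradi5g15830 the log2 ratio was 1.37, 1.33 and 1.44 in pruned roots, against 2.00, 1.94 and 2.01 in intact roots, a difference of -0.61 (SE 0.09). In both cases each pruned library lay well under each intact one.

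The 2 most heavily read genes also moved away from Bradi3g49270. The log2 ratio of Bradi3g49250 to it differed by -0.48 (SE 0.09) and that of Bradi3g49260 by -0.40 (SE 0.09). For Bradi3g47110 and Bradi3g47120 the differences were -0.15 (95% interval -0.48 to 0.18) and -0.18 (95% interval -0.61 to 0.24). The errors and intervals are from limma on the log2 ratios of all other genes to Bradi3g49270, a fit chosen after the values were seen. It called the ratio of 4 of the 6 other PAL genes and of 47.5% of all genes, which is a description here.

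With only 3 libraries a group, an exact permutation test of a single ratio cannot go below p = 0.1. Of the 21 pairs of PAL genes, 11 had log2 ratios that did not overlap between pruned and intact roots, all at that smallest p. The smallest p adjusted over the 21 pairs was 0.191. The share without overlap among pairs of all genes was not computed. Single genes without overlap made up 22.7% of all genes with pruned roots lower and 33.4% with pruned roots higher. The 11 pairs are therefore a description only. With a pseudocount of 0.1 the pairs without overlap were 10, and with a pseudocount of 1 they were 13. Of these 11 pairs, 4 hold Bradi3g49270. By the exact test 0 of the ratios to Bradi3g49270 passed.

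**Figure D4:**
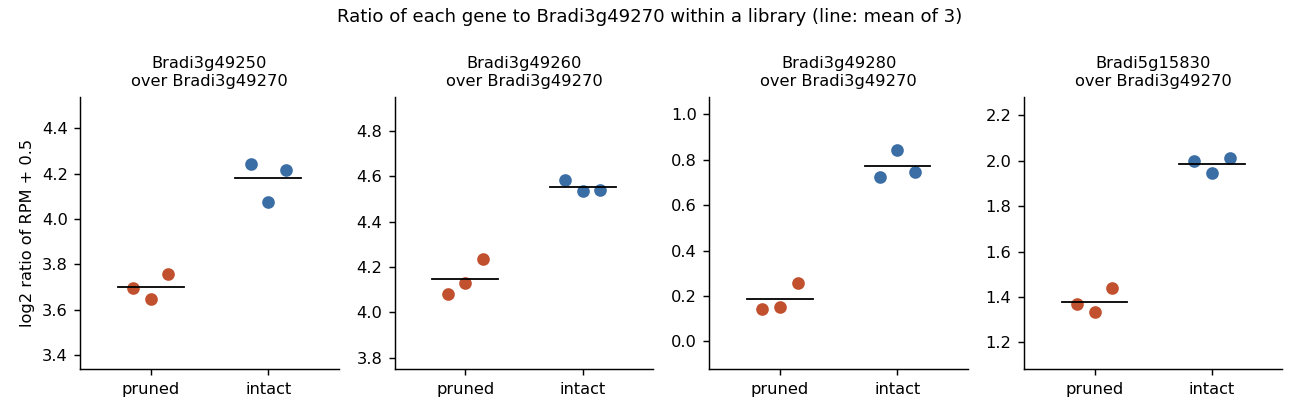
Log2 ratio of RPM + 0.5 of 4 PAL genes to Bradi3g49270 within each library (vertical axes, not from 0 and each with its own range), in pruned and intact roots. Points are libraries and lines the mean of 3; every pruned point lies below every intact point in all 4 panels.

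Only uniquely mapped reads were counted. Reads that cannot be placed between near-identical copies are therefore missing from these values, and how many there were for neighbouring PAL genes was not tested. Read layout also differed between libraries. Within the paired-end libraries, pruned replicate 1 differed from the intact libraries on the log2 scale by -0.22 for Bradi3g49250, -0.20 for Bradi3g49260, 0.27 for Bradi3g49270, -0.36 for Bradi3g49280 and -0.35 for Bradi5g15830. These differences have the same direction as with all 6 libraries and passed the test in limma, where the lone pruned library is assumed to vary like the intact ones.

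**Figure D5:**
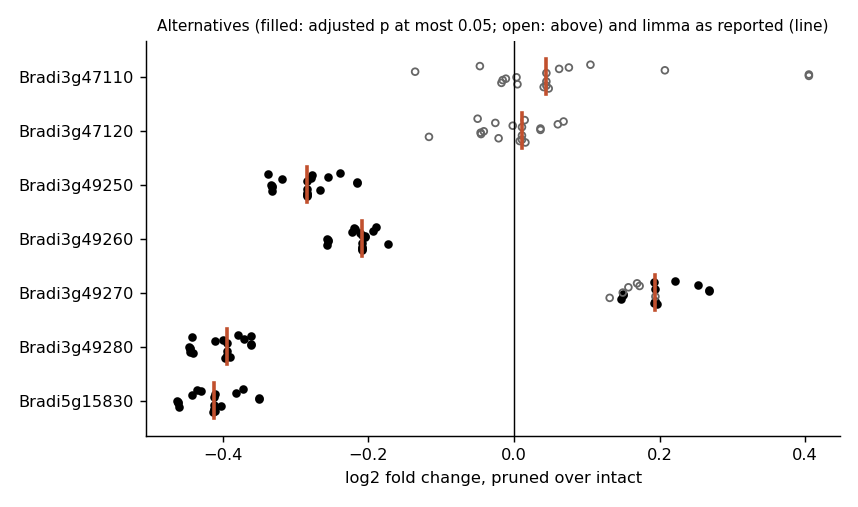
Log2 fold change, pruned over intact (horizontal axis), of each PAL gene under the 19 alternative settings (points, filled where the adjusted p was at most 0.05) and as reported (line); the filter at 5 RPM gives no point for Bradi3g47110 and Bradi3g47120. The points of the 4 genes that fell stay left of 0 and filled, those of Bradi3g49270 stay right of 0 with 6 open, and those of the pair lie on both sides of 0.

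Across the 6 libraries, the other PAL genes followed Bradi3g49260 to different degrees. On log2(RPM + 0.5), Pearson's r with Bradi3g49260 was 0.990 for Bradi5g15830, 0.961 for Bradi3g49280, 0.949 for Bradi3g49250 and -0.695 for Bradi3g49270. The 6 points of each correlation fall into the pruned and the intact group, so r mostly restates the difference between them. Among 14858 genes with a mean of at least 5 RPM, the closest to Bradi3g49260 were Bradi5g26080 (r = 0.999), Bradi4g36594 (0.998) and Bradi3g41640 (0.997), with log2 fold changes of -0.30, -0.39 and -0.37. An r of at least 0.95 was reached by 1233 genes.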

How the data were processed

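Root RNA of 3 pruned and 3 intact groups of plants was sequenced by the authors, and per the study's methods reads were trimmed with SolexaQA and cutadapt, mapped to the phytozome genome and counted where uniquely mapped. The submitters' processing notes name TopHat and HTSeq. The strand setting was not given in the sources used here. The deposited RPM values sum to 1000000 in each library over 19538 genes, and 0 columns were left unmapped to a sample. Divided by the worth of 1 read, 100% of the values in each library came out whole (tolerance 0.01), which gave the reads behind them. Apart from genes at 0, of which each library had at most 5, the lowest value stood for 1 read in 4 libraries, for 4 in pruned replicate 2 and for 2 in pruned replicate 3.

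Pruned roots were set against intact roots on log2(RPM + 0.5) by limma 3.58.1 (R 4.3.3; lmFit, eBayes with trend). Tests were two-sided and adjusted by Benjamini-Hochberg across the 19538 genes. A fold change on this scale understates the change of genes near the pseudocount of 0.5. A filter of 0.5 RPM in at least 3 libraries removed no gene. Every listed gene already had at least 1 RPM in at least 3 libraries. Shares, ranks and quartiles over all genes therefore cover only genes read at that level. A gene could reach it through 1 group alone. P-values of limma rest on each gene's spread between these libraries, drawn toward a trend fitted over all genes. They are therefore not a measure of that gene's own spread alone. In limma without the trend the adjusted p was 0.0149 for Bradi3g49250, against 4.17e-05 with it. For Bradi5g15830 it was 0.00187 without the trend, against 1.92e-07 with it. Counting intervals are 95% Poisson intervals and cover counting error only. Ratios between PAL genes were tested by an exact permutation test and, as an addition after seeing the data, by limma. Other settings tried were quantile normalization, median-ratio scaling, a pseudocount of 0.1 or 1, a filter of 5 RPM or none, limma without trend, DESeq2 1.42.0 and edgeR 4.0.16 (quasi-likelihood and exact tests) on the recovered reads, paired-end libraries alone, a layout term, a replicate block and each library left out. The fits were tested on simulated data, where few or no genes changed and read layout did not differ, unlike in these libraries. Plots were drawn with matplotlib 3.10.9, and other steps used scipy 1.17.1, pandas 2.3.3 and numpy 2.4.6 under Python 3.11.15.

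The members and the lists were chosen with earlier results of these data known. Genes named are the 7 members, the 3 genes of highest Pearson r with the member of highest mean RPM, and the nearest gene on each side of each neighbouring group, and in addition Bradi3g49255, which lies inside the quartet and was chosen after its values were seen. Because 0 of the 19538 identifiers matched the gene reference, lists of other phenylpropanoid and tissue marker genes, and sequences, were not used here.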

Additional observations from a re-analysis of the deposited data

How the results depend on the processing

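Bradi3g49250, Bradi3g49260, Bradi3g49280 and Bradi5g15830 stayed lower in pruned roots and kept their calls under all 19 alternatives. Their log2 fold changes ranged from -0.34 to -0.22, -0.26 to -0.17, -0.45 to -0.36 and -0.46 to -0.35 in that order. Bradi3g49270 ranged from 0.13 to 0.27. Calls were common in the table under the alternatives too. They took 43.8% of all genes without pruned replicate 2, 45.6% in limma without the trend and 56.8% with a filter of 5 RPM. The uncalled PAL genes changed sign. Bradi3g47120 was at -0.021 with median-ratio scaling, -0.117 with quantile normalization, -0.0451 and -0.0457 with the edgeR quasi-likelihood and exact tests, -0.0413 with DESeq2, and between -0.0498 and 0.0682 with 1 library left out. Bradi3g47110 was at -0.0171 with quantile normalization, -0.0154 and -0.011 with the same edgeR tests, and between -0.136 and 0.21 with 1 library left out. A filter of 5 RPM removed both. By the exact test 0 ratios to Bradi3g49270 passed, which was fixed beforehand, since 3 libraries a group cannot give a p below 0.1. By limma, with a denominator chosen for its rise, 4 ratios of PAL genes were called, in a fit that called 47.5% of all genes. The number by limma was also 4 with each library left out in turn (lowest 4, highest 4). The ratio of the 7 summed genes ranged from 0.814 with median-ratio scaling to 0.862 with paired-end libraries.

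Median-ratio scaling put the median log2 fold change of all genes at 0.00 and quantile normalization at -0.02, against 0.04. Whether replicate numbers pair the libraries could not be decided from 3 libraries a group. The deviations of libraries from their group mean had same-numbered r of -0.03, 0.20 and 0.08. Between different numbers r ran from -0.21 to 0.12. With a replicate block 5 of the 7 genes and 51.9% of all genes were called, against 5 of the 7 and 50.3% without it. Depth limits Bradi3g47110 and Bradi3g47120, with 16 to 68 reads a library.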

Other observations

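By identifier, 1 listed gene lies inside the quartet, between Bradi3g49250 and Bradi3g49260. It is Bradi3g49255, named here after its values were seen and without annotation in the sources used here. It had 2.43, 2.46 and 2.56 RPM in pruned roots, against 7.66, 5.75 and 6.39 RPM in intact roots, with a log2 fold change of -1.24 (SE 0.13, adjusted p = 2.94e-08 by limma). It changed more than any of the 7 PAL genes. Its strand relative to its neighbours was not looked up, and reads of overlapping or antisense genes could not be told apart without the strand setting.

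The nearest listed genes outside the neighbouring groups did not move as one. Beside the quartet, Bradi3g49240 and Bradi3g49290 had log2 fold changes of 0.05 and -0.35 and did not pass the test (adjusted p = 0.749 and 0.131 by limma). Bradi3g49290 reached 1 RPM only in the intact libraries. Beside the pair, Bradi3g47080 was at -0.22 (adjusted p = 0.299), and Bradi3g47127 was higher, with 16.8 ± 0.874 RPM in pruned and 13.98 ± 0.703 RPM in intact roots (SD, n = 3 each; log2 fold change 0.26, adjusted p = 0.00948 by limma). Beside Bradi5g15830, which fell, Bradi5g15835 was higher, with 10.55 ± 1.04 RPM in pruned and 6.11 ± 0.9496 RPM in intact roots (SD, n = 3 each; log2 fold change 0.75, adjusted p = 7.41e-06 by limma), and Bradi5g15820 was at 0.24 (adjusted p = 0.0744).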
